A study of Homo sapiens with 6 samples.

Results

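The SR proteins and the heterogeneous nuclear ribonucleoproteins (hnRNPs), with the TRA2, PTBP and U2AF proteins, SF3B1, CLK1 and CLK4, were examined in VC and CNTNAP4 KO cells. Genes were chosen by symbol: every SRSF gene with a number, every HNRNP gene, and TRA2A, TRA2B, PTBP1, PTBP2, U2AF1, U2AF2, SF3B1, CLK1 and CLK4, without pseudogene and antisense entries. Of the 54308 genes in the table, 98 entries matched by symbol, 52 of these were pseudogenes, and 46 genes remained. The comparison needed 2 or more values per group, which 43 of the 46 members had. The other 3 were HNRNPCL2, HNRNPCL3 and HNRNPCL4, near-identical relatives of HNRNPC: HNRNPCL2 had a value in KO replicate 3 alone, HNRNPCL3 in VC replicate 3 and KO replicate 3, and HNRNPCL4 in KO replicates 1 and 2.

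All 6 libraries came from 143B, a human osteosarcoma cell line. The VC group held 3 libraries of cells given a vector plasmid (genotype control), and the KO group held 3 libraries of cells given a CRISPR/Cas9 plasmid against CNTNAP4 (genotype CNTNAP4 KO). The labels give 48 h of transfection for both groups, whereas the methods describe clonal cells grown from sorted colonies. Which colony gave which library is not stated in the sources used here, so clone and gene deletion cannot be told apart. The labels count the samples as biological replicates, and nothing in the sources used here says that they came from separate clones. CNTNAP4 itself had a value only in VC replicate 3, at a log2 signal of -7.18, so its transcript gave no usable check of the deletion in these libraries. The study itself reported the deletion in its knockout clones by qRT-PCR, western blot and a T7 endonuclease I assay. Signals of VIM, SPARC, RUNX2 and COL1A1 were present in all 6 libraries, COL1A2 lay between -5.72 and -4.59, and BGLAP had a value in 2 libraries. ALPL also had 6 values, at -1.34 to -0.49. Of the epithelial markers, KRT8 (6.49 to 7.27), KRT18 (8.63 to 9.06) and EPCAM (0.84 to 1.79) had signal in all 6 libraries, and CDH1 had a value in 1. KRT8 was higher in KO (log2 fold change 0.59, adjusted p = 0.0135) and EPCAM was lower (-0.67, adjusted p = 0.0157), and the part of such differences in the results below was not tested. The endothelial and blood markers PECAM1, CDH5, VWF, PTPRC, CD3E and HBB did not exceed -3.29, the highest value of CD3E.

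Splicing removes introns from pre-mRNA. SR proteins carry domains rich in arginine and serine, bind exonic enhancers and help recruit the spliceosome to neighbouring splice sites. hnRNPs coat nascent transcripts, and many of them repress the use of nearby splice sites, so that the balance between both families sets which exons are included. U2AF recognises the 3′ splice site, SF3B1 the branch point, and CLK kinases phosphorylate SR proteins. Many of these genes limit their own protein by splicing in exons or retaining introns that send the transcript to nonsense-mediated decay. Values here are per gene, so productive and unproductive transcripts of a gene could not be separated. In GENCODE release 29, a transcript of the nonsense-mediated decay type was annotated for 12 of the 12 SRSF genes, for 13 of the 22 tested HNRNP genes and for 40.8% of the tested protein-coding genes. At least 1 retained-intron transcript was annotated for 31 of the 43 tested members and for 54.8% of the tested protein-coding genes.

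The promoters of 4 of the 14 members called lower in KO are shown. They are not the 4 with the lowest adjusted p, since HNRNPH1 (adjusted p = 0.0258 by limma) came before SRSF1 (0.0292) and is not shown. Each line gives the 250 bases before the RefSeq start site (GRCh38.p14), 5′ to 3′ on the gene's strand: HNRNPA2B1 at chr7:26200747-26200996 (minus strand), SRSF1 at chr17:58007247-58007496 (minus strand), SRSF5 at chr14:69766892-69767141 (plus strand) and SRSF6 at chr20:43457646-43457895 (plus strand). Capitals mark TGACGT, the core of the cAMP response element.
HNRNPA2B1: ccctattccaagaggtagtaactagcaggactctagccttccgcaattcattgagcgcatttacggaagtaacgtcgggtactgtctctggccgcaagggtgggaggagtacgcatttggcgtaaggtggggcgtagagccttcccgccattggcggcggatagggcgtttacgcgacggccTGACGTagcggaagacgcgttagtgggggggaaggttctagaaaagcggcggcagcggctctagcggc
SRSF1: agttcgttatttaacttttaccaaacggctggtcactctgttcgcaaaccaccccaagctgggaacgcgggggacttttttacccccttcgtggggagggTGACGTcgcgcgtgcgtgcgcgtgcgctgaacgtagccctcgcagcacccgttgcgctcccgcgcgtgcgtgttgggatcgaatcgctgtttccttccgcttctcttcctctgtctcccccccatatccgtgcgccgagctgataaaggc
SRSF5: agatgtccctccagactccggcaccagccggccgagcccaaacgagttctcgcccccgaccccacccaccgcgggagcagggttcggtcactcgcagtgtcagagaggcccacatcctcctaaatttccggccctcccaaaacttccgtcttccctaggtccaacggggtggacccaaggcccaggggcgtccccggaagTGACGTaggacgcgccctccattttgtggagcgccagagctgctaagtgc
SRSF6: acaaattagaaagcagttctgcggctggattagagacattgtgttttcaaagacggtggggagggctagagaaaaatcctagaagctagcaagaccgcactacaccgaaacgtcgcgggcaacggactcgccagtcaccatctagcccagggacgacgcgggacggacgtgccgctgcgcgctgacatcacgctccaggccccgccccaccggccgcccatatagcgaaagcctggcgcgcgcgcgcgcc
The letters TGACGT, or ACGTCA on the other strand, began 68 bases before the start site of HNRNPA2B1, 150 bases before that of SRSF1 and 50 bases before that of SRSF5, and were absent from the window of SRSF6. The window of HNRNPH1 did not hold these letters either. The letters were searched after the 4 promoters had been read. HNRNPA2B1, SRSF1 and SRSF5 are counted in the member shares below, so these shares are not independent of that reading. Of the 42 members with a window, 8 held them (19.0%), against 9.80% of the 11557 windows of tested protein-coding genes and 7.39% of all 27305 windows. The 8 were HNRNPA2B1, SRSF1, SRSF3, SRSF5, TRA2B, CLK4, HNRNPH2 and HNRNPCL4. Among the members called lower in KO 3 of 14 windows held the letters (21.4%), and among the other tested members 4 of 26 did (15.4%). The GC box, GGGCGG or on the other strand CCGCCC, was in 64.3% of member windows and 65.6% of those of tested protein-coding genes, and the E-box CACGTG, the same on both strands, was in 19.0% and 8.75%. The letters CCAAT, or on the other strand ATTGG, were in 45.2% and 34.7%, the ETS core, CGGAAG or on the other strand CTTCCG, in 28.6% and 25.9%, and the TATA box, TATAAA or on the other strand TTTATA, in 9.52% and 6.01%. HNRNPA1, HNRNPCL3, SRSF2 and TRA2A had no window.

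Most of the 43 tested members had lower signal in KO, by small amounts. At an adjusted p under 0.05 (limma, Benjamini-Hochberg over all 19306 genes tested), 14 members were lower in KO and 1, HNRNPA1, was higher. Across all genes 32.9% passed this threshold, and 34.9% of the members did, so the total was close to that of any gene. The split by direction was not: 32.6% of the members were lower against 19.8% of all genes and 22.5% of genes with a mean signal in the upper 50%, a class that held 40 of the 43 members, and 2.33% were higher against 13.1% and 16.7%. In that upper class 39.2% of genes passed in either direction. The log2 fold change was below 0 in 36 of 43 members (83.7%), against 59.8% of all genes and 58.6% of the upper 50%, and its median was -0.36 against -0.13 over all genes and -0.09 over the upper 50%. The 14 lower members were SRSF1, SRSF5, SRSF6, SRSF9, SRSF11, HNRNPA2B1, HNRNPAB, HNRNPD, HNRNPC, HNRNPR, HNRNPH1, HNRNPH3, HNRNPK and HNRNPUL2. A 2-fold change was reached by SRSF1 alone, against 5.43% of all genes that were called and at least 2-fold lower.

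A further 9 members had an adjusted p between 0.05 and 0.07, 8 of them lower in KO, so the number called turned on where the threshold fell and on single libraries. By limma it was 0 without VC replicate 1 and 0 without VC replicate 3 (17 and 16 members at an unadjusted p under 0.05), 2 without VC replicate 2, 29 without KO replicate 1, 7 without KO replicate 2 and 1 without KO replicate 3. In the same order 1403, 1223, 2450, 8669, 4393 and 2018 of all genes were called, of 18458 to 18748 tested. The sign of the log2 fold change was the same in all 6 of these fits for each of the 43 members. Each of these fits keeps all but 1 of the same 6 libraries, so their signs are not independent. The share over all genes is not given here. All 3 KO values lay below all 3 VC values in 27 members, above them in 3, and overlapped them in 13. Of all genes with 6 values 36.7% were below and 22.6% above. Of the 9653 genes in the upper 50% of mean signal 4035 were below and 2747 above. Every one of the 15 members called was among those without overlap, where 15 more were not called. With signals centred on chromosome medians 11 members were called, and SRSF5, SRSF6, SRSF9, HNRNPAB, HNRNPC, HNRNPH3 and HNRNPUL2 were no longer among them. SRSF2, HNRNPDL and HNRNPLL were called only then (adjusted p = 0.0440, 0.0419 and 0.0196 by limma) and not in the main fit. With libraries centred on the median of the genes tested, which differs between libraries although that of all listed values does not, 13 were called, without SRSF9, HNRNPR and HNRNPH3. HNRNPLL was called in addition (adjusted p = 0.0251 by limma). Without moderation 10 were called, 8 lower and 2 higher, and SRSF1 was not among them (adjusted p = 0.0612). Over all genes 5480 of 17667 were called with chromosome centring, 6207 of 19306 with median centring and 4432 of 19306 without moderation.

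**Figure D1:**
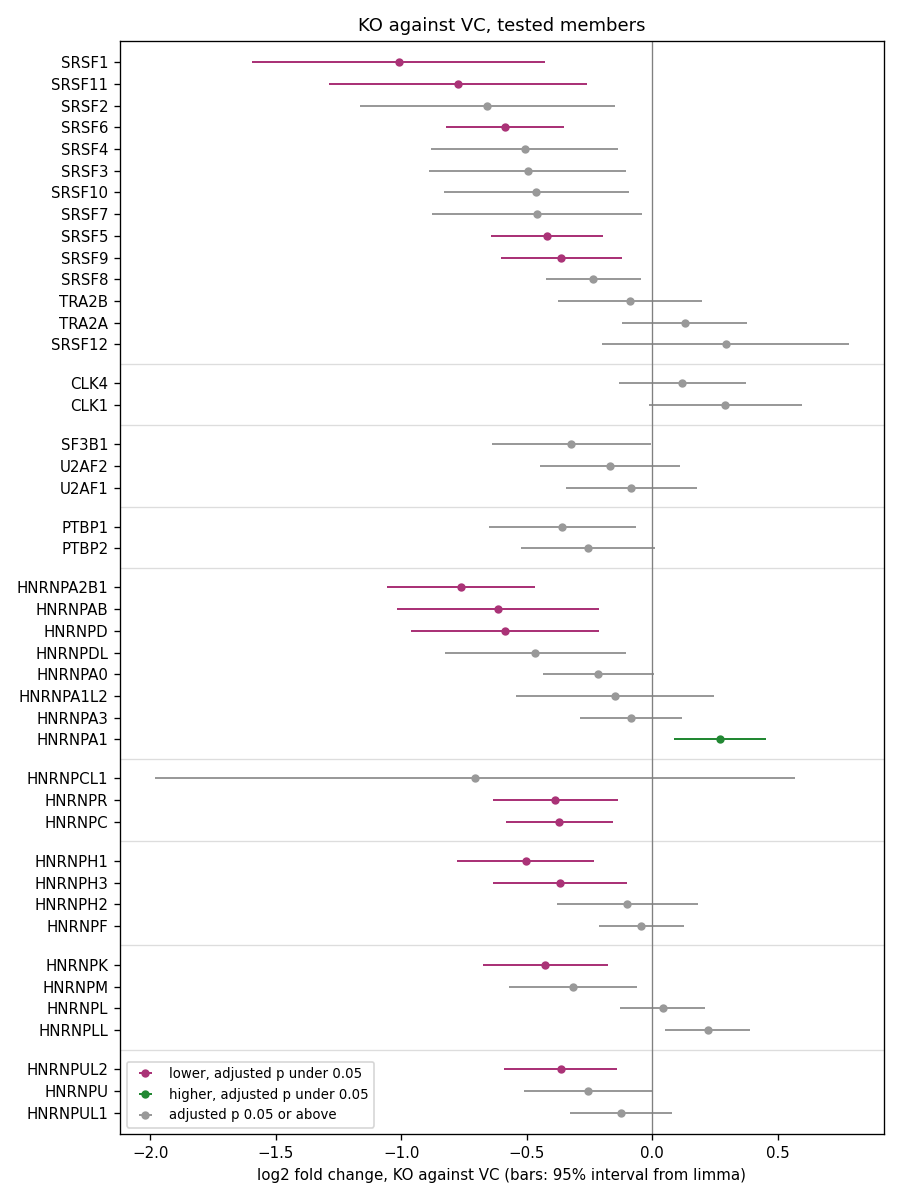
Log2 fold change of KO against VC (x axis) for the 43 tested members, grouped by role and separated by grey lines, with 95% intervals from limma as bars and colour for the adjusted p. Points to the left of 0 are lower in KO, 36 of the 43, and SRSF1 has the lowest value, -1.01.

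**Figure D2:**
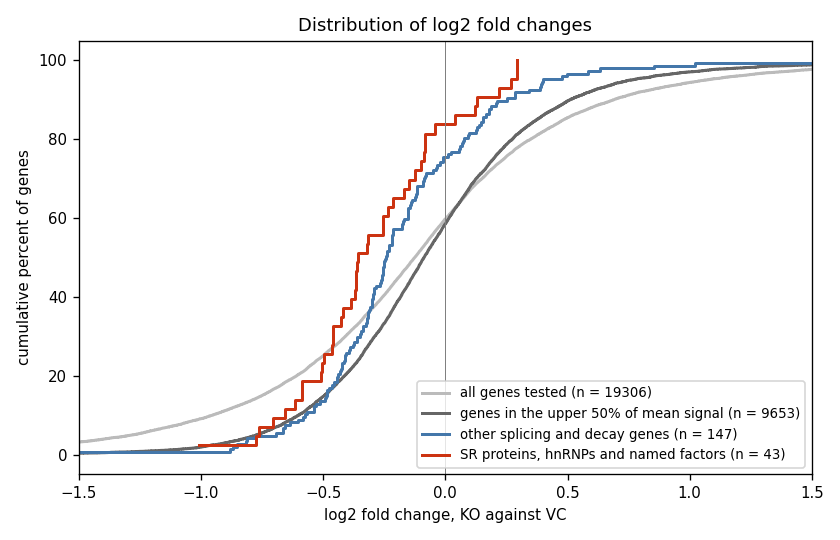
Cumulative percent of genes (y axis) by log2 fold change of KO against VC (x axis) for the 43 members, 147 other splicing and decay genes, all 19306 genes and the upper 50% of mean signal. At its middle the curve of the members lies to the left of the others, with a median of -0.36 against -0.13 for all genes, whereas at the far left all genes reach lower values, and values beyond 1.5 in either direction are not drawn.

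Among the SR proteins, SRSF1, SRSF5, SRSF6, SRSF9 and SRSF11 were lower in KO, 5 of the 14 genes (35.7%, against 19.8% of all genes), and none was higher (13.1% of all genes). Of the 12 SRSF genes, all 3 KO values lay below all 3 VC values in 11, the exception being SRSF12. This was so in 36.7% of all genes with 6 values and in 4035 of the 9653 in the upper 50% of mean signal. The median log2 fold change of the 12 was -0.48, against -0.13 over all genes and -0.09 over the upper 50%. SRSF1, the founding SR protein and a known proto-oncogene, had log2 signals of 6.45, 6.50 and 6.42 in VC replicates 1, 2 and 3 and of 5.86, 4.97 and 5.51 in KO replicates 1, 2 and 3. The groups did not overlap, and KO replicate 2 was lowest. The fold change was -1.01 (SE 0.23, adjusted p = 0.0292) on the log2 scale, so that KO signal was 49.7% of VC.

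SRSF6, an SR protein that binds exonic enhancers, had 5.63, 5.71 and 5.66 in VC and 5.22, 4.94 and 5.08 in KO. The 3 KO libraries were close to each other and below VC, with a log2 fold change of -0.59 (SE 0.09, adjusted p = 0.0143). SRSF5, which also acts in splicing enhancement, had 5.65, 5.65 and 5.61 in VC and 5.36, 5.12 and 5.17 in KO. Again no KO value reached the VC range, and the log2 fold change was -0.42 (SE 0.09, adjusted p = 0.0248). Both genes lie on chromosomes whose genes were lower as a whole in KO. The median log2 fold change was -0.39 over the 561 tested genes of chromosome 14, which holds SRSF5, and -0.25 over the 491 of chromosome 20, which holds SRSF6. With each library's signals centred on its chromosome medians, the log2 fold change of SRSF5 became 0.02 (adjusted p = 0.871) and that of SRSF6 -0.31 (adjusted p = 0.114), so neither call was kept, and the part of the chromosomes in these differences was not tested. SRSF1, on chromosome 17 (median -0.11), had -1.03 after the same centring (adjusted p = 0.0247).

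The other 2 SR genes called were SRSF11, an SR-related protein that contacts U2AF, with a log2 fold change of -0.77 (SE 0.20, adjusted p = 0.0397), and SRSF9, a close relative of SRSF1, with -0.36 (SE 0.10, adjusted p = 0.0397). SRSF9 shares its locus with GATC, as SRSF2 does with MFSD11, SRSF4 with MECR and SRSF12 with PM20D2, and the strand setting of the counting is not given in the sources used here. Among the other members called, HNRNPAB overlaps PHYKPL, HNRNPK overlaps RMI1, and HNRNPH3 overlaps RUFY2 and PBLD, all protein-coding. SRSF1, SRSF5, HNRNPH1, HNRNPK and HNRNPUL2 overlap long noncoding genes. SRSF4 fell just outside, with a log2 fold change of -0.51 and an adjusted p of 0.0500387. SRSF2, a gene often mutated in myeloid neoplasms (-0.66, adjusted p = 0.0572), SRSF3 (-0.50, 0.0601), SRSF10 (-0.46, 0.0614), SRSF8 (-0.23, 0.0625) and SRSF7 (-0.46, 0.0836) did not pass the test, although no KO library reached the VC range in any of them. Their intervals excluded 0, from -1.16 to -0.15 for SRSF2 and from -0.88 to -0.04 for SRSF7.

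SRSF12 and the TRA2 genes differed from this pattern in their values. SRSF12, a relative of SRSF10, had -1.46, -1.12 and -1.67 in VC and -1.40, -0.91 and -1.06 in KO. The groups overlapped, with a log2 fold change of 0.29 (SE 0.20, adjusted p = 0.285). TRA2A and TRA2B are SR-like proteins that activate exons through purine-rich enhancers. TRA2A had 4.30, 4.40 and 4.23 in VC and 4.56, 4.46 and 4.30 in KO, with a log2 fold change of 0.13 (SE 0.10, adjusted p = 0.345). TRA2B had 5.62, 5.62 and 5.58 in VC and 5.74, 5.45 and 5.36 in KO, with -0.09 (SE 0.11, adjusted p = 0.578), and KO replicate 1 lay above VC while the other KO libraries lay below it. The direction of TRA2B was not kept when libraries were centred on the median of the genes tested, where its log2 fold change was at 0.

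**Figure D3:**
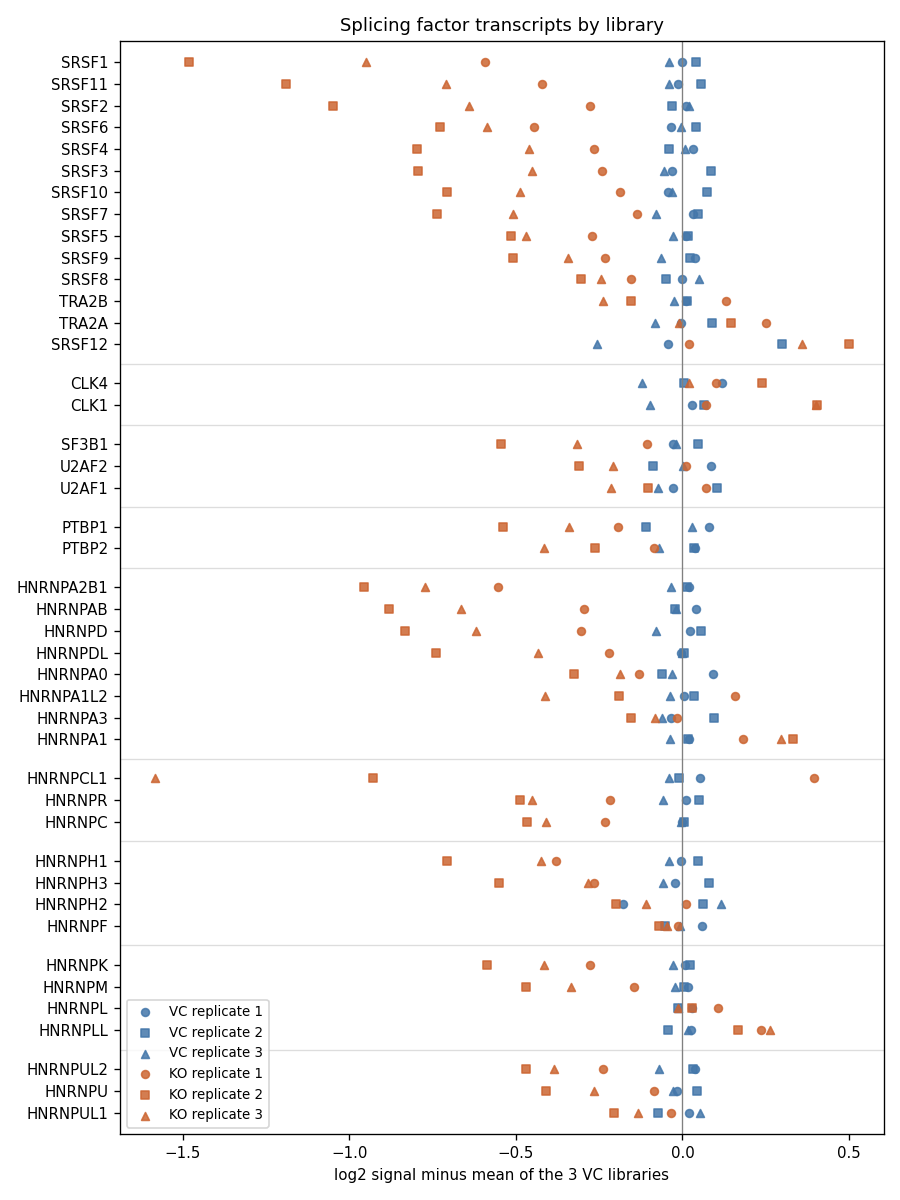
Log2 signal of each library minus the mean of the 3 VC libraries (x axis) for the 43 tested members, with circles, squares and triangles for replicates 1, 2 and 3 of VC (blue) and KO (orange). VC libraries cluster at 0, and KO replicate 2 is the lowest of the 6 libraries in 31 of the 43 members (72.1%, against 37.4% of all genes with 6 values and 41.1% of the upper 50% of mean signal).

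The kinases CLK1 and CLK4, which phosphorylate SR proteins and thereby move them within the nucleus, did not pass the test. CLK1 had 3.43, 3.47 and 3.30 in VC and 3.47, 3.80 and 3.80 in KO. KO replicate 1 was level with VC and the other KO libraries were higher, without overlap, at a log2 fold change of 0.29 (SE 0.12, adjusted p = 0.114). CLK4 had 1.71, 1.60 and 1.47 in VC and 1.69, 1.83 and 1.61 in KO, which overlapped (0.12, SE 0.10, adjusted p = 0.388).

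The 3′ splice site and branch point factors also showed no call. SF3B1, the branch point protein of the U2 snRNP, had 5.81, 5.89 and 5.82 in VC and 5.73, 5.30 and 5.52 in KO. All KO values were below VC, with a log2 fold change of -0.32 (SE 0.13, adjusted p = 0.102). U2AF2, the large U2AF subunit that binds the polypyrimidine tract, had 6.82, 6.64 and 6.73 in VC and 6.74, 6.42 and 6.52 in KO, at -0.17 (SE 0.11, adjusted p = 0.277). KO replicate 1 lay within the VC range. U2AF1, the small subunit that reads the AG at the intron end, had 2.38, 2.51 and 2.33 in VC and 2.47, 2.30 and 2.19 in KO, at -0.08 (SE 0.10, adjusted p = 0.562), a sign that turned under median centring (0.005) and chromosome centring (0.08). The table lists U2AF1L5, a near-identical copy of U2AF1, at 6.73 ± 0.02 in VC and 6.56 ± 0.17 in KO (mean ± SD, n = 3), with a log2 fold change of -0.17 (adjusted p = 0.267). Reads of both loci could not be separated here, so the level of U2AF1 is uncertain.

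The polypyrimidine tract binding proteins repress exons, PTBP1 in most cells and PTBP2 mainly in neurons. PTBP1 had 7.71, 7.52 and 7.66 in VC and 7.44, 7.09 and 7.29 in KO. The groups were apart, with a log2 fold change of -0.36 (SE 0.12, adjusted p = 0.0644). PTBP2 had 0.54, 0.54 and 0.44 in VC and 0.42, 0.24 and 0.09 in KO, also apart, at -0.25 (SE 0.11, adjusted p = 0.117). PTBP1, HNRNPM and HNRNPH1 belong to an FGFR signaling list that the study chose on these samples, so their direction is not independent evidence for that list.

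Among the 22 tested HNRNP genes 9 were lower (40.9%, against 19.8% of all genes and 22.5% of the upper 50%) and 1 was higher (4.55%, against 13.1% and 16.7%) in KO, with a median log2 fold change of -0.34. HNRNPA2B1, which binds UAG-containing sites and takes part in RNA sorting, had the lowest adjusted p of all members. Its log2 signals were 8.84, 8.83 and 8.78 in VC and 8.26, 7.86 and 8.05 in KO. The KO libraries were all below VC, in the order 2, 3 and 1 from the lowest, and the log2 fold change was -0.76 (SE 0.12, adjusted p = 0.0134), or 59.0% of VC. It was called in 4 of the 6 fits that left out a library, with adjusted p-values up to 0.0539.

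HNRNPA1, a close relative that represses exons and antagonises SRSF1 at many splice sites, was the 1 member higher in KO. It had 8.46, 8.46 and 8.41 in VC and 8.63, 8.77 and 8.74 in KO. All KO libraries were above VC, and KO replicate 2, lowest for most members, was highest here, with a log2 fold change of 0.27 (SE 0.07, adjusted p = 0.0418). HNRNPA1 has many processed pseudogenes, which could take or give reads, so its values are uncertain to that extent. Of the pseudogene entries that matched by symbol and were left out, only HNRNPA3P1 and HNRNPKP3 had values in any library, and neither belongs to HNRNPA1. The symbol pattern allowed at most 1 digit after the P of an HNRNPA1 pseudogene, so those with longer numbers were not examined. HNRNPA1L2, a near-identical copy, overlapped between groups (log2 fold change -0.15, adjusted p = 0.490). In the same family HNRNPAB, a relative of HNRNPD (-0.61, SE 0.16, adjusted p = 0.0384) and HNRNPD, also known as AUF1, a binder of AU-rich elements (-0.59, SE 0.15, adjusted p = 0.0366), were lower, and HNRNPDL (-0.47, adjusted p = 0.0573), HNRNPA0 (-0.22, adjusted p = 0.112) and HNRNPA3 (-0.09, adjusted p = 0.444) did not pass.

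HNRNPC, which binds uridine tracts and packages nascent transcripts, had 7.76, 7.77 and 7.76 in VC and 7.53, 7.30 and 7.35 in KO. The VC libraries were nearly equal (SD 0.0054), and every KO library was lower (log2 fold change -0.37, SE 0.09, adjusted p = 0.0294). Like SRSF5, HNRNPC lies on chromosome 14, and after chromosome centring it was at 0.07 (adjusted p = 0.524). HNRNPR, a relative of SYNCRIP, was lower (-0.39, SE 0.10, adjusted p = 0.0367), and HNRNPCL1, a near-identical relative of HNRNPC, spread from -4.46 to -2.48 in KO (-0.71, SE 0.51, adjusted p = 0.318).

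HNRNPH1, a binder of G-rich runs, had 6.65, 6.70 and 6.62 in VC and 6.28, 5.95 and 6.23 in KO. The groups were apart, and KO replicate 2 was again lowest (-0.50, SE 0.11, adjusted p = 0.0258). HNRNPH3 was lower as well (-0.37, SE 0.11, adjusted p = 0.0487), close to the threshold, and it overlaps RUFY2 and PBLD. HNRNPF, of the same family, was at -0.04 (95% interval -0.21 to 0.13, adjusted p = 0.637), and HNRNPH2 was at -0.10 (adjusted p = 0.517). The read-through entry RPL36A-HNRNPH2, which shares exons with HNRNPH2, was lower (-0.33, adjusted p = 0.0431), so the value of HNRNPH2 depends on how reads were assigned.

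HNRNPK, a binder of C-rich runs, had 8.65, 8.66 and 8.61 in VC and 8.36, 8.05 and 8.22 in KO. No KO library reached the VC range (-0.43, SE 0.10, adjusted p = 0.0297). HNRNPM, a regulator of splicing in epithelial-mesenchymal transition, had 7.39, 7.38 and 7.35 in VC and 7.23, 6.90 and 7.04 in KO, apart but not past the threshold (-0.32, SE 0.10, adjusted p = 0.0628). HNRNPL and HNRNPLL bind CA repeats. HNRNPLL had 3.58, 3.51 and 3.57 in VC and 3.79, 3.72 and 3.81 in KO, all above VC (0.22, SE 0.07, adjusted p = 0.0555). HNRNPL had 7.44, 7.40 and 7.40 in VC and 7.52, 7.45 and 7.40 in KO, which overlapped (0.04, SE 0.07, adjusted p = 0.661), and its sign turned under library weights (-0.01).

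HNRNPUL2, a relative of the scaffold protein hnRNP U that works in the response to DNA breaks, had 5.22, 5.22 and 5.12 in VC and 4.95, 4.71 and 4.80 in KO. The groups were apart (-0.37, SE 0.09, adjusted p = 0.0330). Its read-through entry HNRNPUL2-BSCL2 was at 0.06 (adjusted p = 0.617). HNRNPU was at -0.25 (adjusted p = 0.108) and HNRNPUL1 at -0.12 (adjusted p = 0.271).

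The KO libraries did not contribute alike. The median deviation of the 43 members from the VC mean was -0.14 in KO replicate 1, -0.47 in KO replicate 2 and -0.34 in KO replicate 3, against -0.04, -0.16 and -0.15 over all genes with 6 values. For the 12 SRSF genes it was -0.25, -0.73 and -0.48, and for the 22 HNRNP genes -0.14, -0.47 and -0.36. KO replicate 2 was the lowest of the 6 libraries in 31 of 43 members (72.1%), against 37.4% of all genes with 6 values and 41.1% of the upper 50% of mean signal. The order KO replicate 2, then 3, then 1 from low to high was found in 72.1% of the members, 36.4% of the 17698 genes with 6 values and 40.8% of those in the upper 50%. The SD of the 3 KO values exceeded that of the 3 VC values in 38 of 43 members (88.4%), in 68.1% of all genes and in 76.2% of the upper 50%. The median ratio of these SDs was 3.71 in the members, 1.60 over all genes and 1.99 over the upper 50%. Members share libraries, so these counts describe 3 KO libraries and are not independent replicates.

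Because HNRNPA1 and HNRNPA2B1 moved in opposite directions, the difference in log2 signal within a library was compared between groups for 8 related pairs, which were chosen after their values had been seen. The difference HNRNPA1 minus HNRNPA2B1 was higher in KO by 1.03, with SDs of 0.0035 in VC and 0.28 in KO. HNRNPF minus HNRNPH1 was higher by 0.46 and TRA2A minus TRA2B by 0.22. HNRNPL minus HNRNPLL was lower in KO, with a change of -0.18, as was HNRNPD minus HNRNPDL, with -0.12. In these 5 pairs the groups did not overlap, and the two-sided exact permutation p was 0.1, the smallest that 3 against 3 libraries allow (0.16 after Benjamini-Hochberg adjustment over the 8 pairs), so the design could not place any of them below 0.05. Of single genes with 6 values, 36.7% had all KO values below all VC values and 22.6% had them above. The share among pairs of other genes is not given here, so the count of 5 is not read as a trait of related pairs. CLK1 minus CLK4 (0.17, exact permutation p = 0.3), PTBP1 minus PTBP2 (-0.10, exact permutation p = 0.6) and U2AF1 minus U2AF2 (0.09, exact permutation p = 0.5) overlapped between groups.

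**Figure D4:**
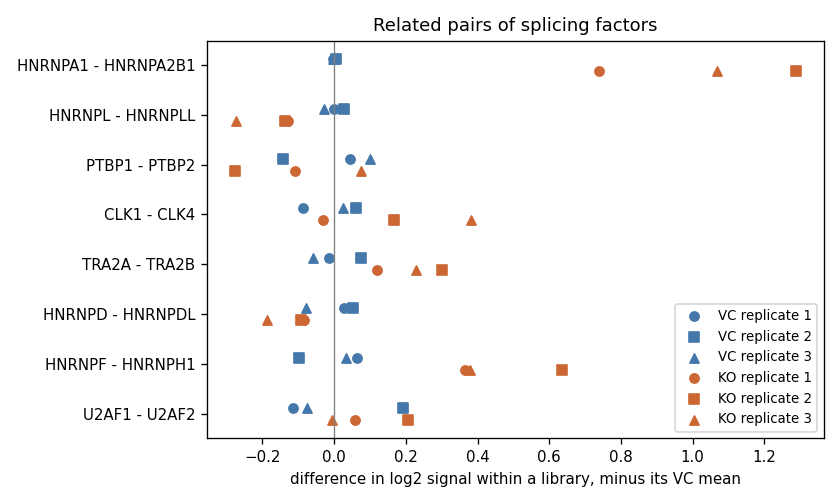
Difference in log2 signal between 2 related genes within each library, minus the mean of that difference in VC (x axis), for 8 pairs, with VC in blue and KO in orange. HNRNPA1 minus HNRNPA2B1 is higher in all 3 KO libraries, with a mean change of 1.03, whereas PTBP1 minus PTBP2 overlaps between groups.

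The rest of the machinery was read from 148 other genes of splicing and nonsense-mediated decay in 11 lists, of which 147 were tested. Of these 51 were called (34.7%, against 32.9% of all genes), a total close to the background. By direction 40 were lower (27.2%, against 19.8%) and 11 higher (7.48%, against 13.1%) in KO, and their median log2 fold change was -0.24. With libraries centred on the median of the genes tested the split was 24 lower and 17 higher, and without moderation 15 and 13. Without VC replicates 1, 2 and 3 the number called was 4, 10 and 5 in place of 51, and without KO replicates 1, 2 and 3 it was 94, 33 and 8. In the U4/U6.U5 tri-snRNP and LSM list 8 of 22 were lower and none was higher. The U2 snRNP list had 5 of 20 lower and 2 higher, the U1 snRNP list 2 of 10 lower and 1 higher, the Sm core 1 of 7 lower, and the minor spliceosome 1 of 8 lower and 1 higher. In the PRP19 complex and catalytic step list 2 of 21 were lower and 3 higher, with a median of -0.01. Among 7 tested SR protein kinases and their importer none was called, and 4 had an unadjusted p under 0.05.

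Among regulators, 5 of 13 other hnRNP-like proteins (38.5%), 4 of 13 SR-related and exon junction genes (30.8%) and 6 of 18 other alternative splicing regulators (33.3%) were lower. In these lists 0, 1 (7.69%) and 2 (11.1%) were higher. Over all genes 19.8% were lower and 13.1% higher, and in the upper 50% of mean signal 22.5% and 16.7%. Among the genes called in all these lists, the 3 largest decreases were those of NOVA1, a neuronal splicing regulator (-1.66, SE 0.18, adjusted p = 0.00891), RBM25, a U1-associated regulator (-0.88, SE 0.18, adjusted p = 0.0239), and LUC7L3, a U1 snRNP-associated protein with an arginine-serine domain (-0.87, SE 0.23, adjusted p = 0.0402). NOVA1 and RBM25 lie on chromosome 14, and with chromosome-centred signals NOVA1 was at -1.22 (adjusted p = 0.0113) and RBM25 at -0.45 (adjusted p = 0.109), no longer called. RBM25 and LUC7L3 were called in 2 of the 6 fits that left out a library, with adjusted p-values up to 0.0743 and 0.103, both without a VC library, and NOVA1 in all 6. The 3 largest increases among them were those of MBNL2, a muscleblind protein (1.02, SE 0.13, adjusted p = 0.0104), ZMAT5, of the minor spliceosome (0.86, SE 0.10, adjusted p = 0.00963), and U2AF1L4, a relative of U2AF1 (0.63, SE 0.10, adjusted p = 0.0132). ZMAT5 lies on chromosome 22, where the median was 0.29, and was at 0.59 (adjusted p = 0.00934) with chromosome-centred signals.

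Nonsense-mediated decay, which removes the unproductive transcripts of SR genes, had 6 of its 8 listed genes lower in KO and 1 higher. Over all genes 19.8% were lower and 13.1% higher, and in the upper 50% of mean signal 22.5% and 16.7%. UPF1, the helicase at its centre, was at -0.64 on the log2 scale (SE 0.16, adjusted p = 0.0337), and UPF2, UPF3A, UPF3B, SMG1 and SMG5 were lower too. SMG6, the endonuclease of the pathway, was higher (0.59, SE 0.09, adjusted p = 0.0130). With libraries centred on the median of the genes tested, and likewise with chromosome-centred signals, 4 of the 8 were lower, since UPF2 and SMG1 were no longer called. The number lower was 0 without VC replicate 1, 1 without VC replicate 2, 0 without VC replicate 3, 7 without KO replicate 1, 3 without KO replicate 2 and 0 without KO replicate 3, and by limma 6 had an unadjusted p under 0.05 in each of the 3 fits that gave 0. SMG6 was not called without VC replicate 1 or VC replicate 3. Without moderation 1 of the 8 was lower and 1 higher, and with a replicate block 0 were called in either direction. In each of these 2 limma fits 7 were lower at an unadjusted p under 0.05. Decay activity was not measured, and neither were isoforms.

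**Figure D5:**
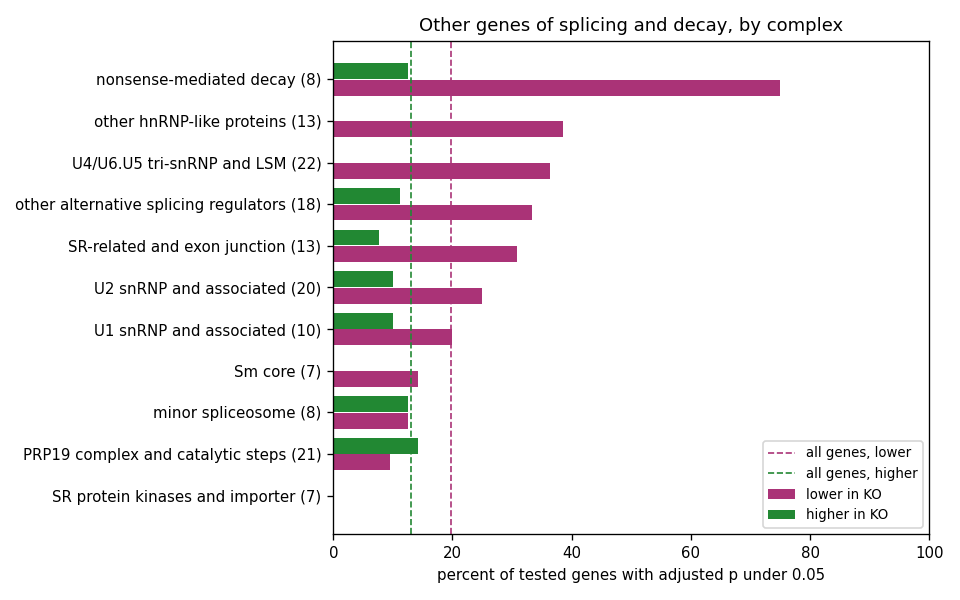
Percent of the tested genes of each list (number in brackets) with an adjusted p under 0.05, lower (purple) or higher (green) in KO, with dashed lines for all 19306 genes (19.8% lower, 13.1% higher). Nonsense-mediated decay has the highest share of lower genes, 6 of 8, and the SR protein kinases and importer have none.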

How the data were processed

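The authors sequenced RNA of 143B cells, 3 VC and 3 CNTNAP4 KO libraries, which were grouped here by label. The labels name a stranded mRNA kit, and the submitters' processing notes name CASAVA, STAR, Partek and GRCh38.p13, whereas the methods name CLC Genomics Server and Workbench, Partek Genomics Suite and a NextSeq instrument. The authors deposited log2 signals per gene symbol, whose sorted values are nearly identical between libraries, so they had been quantile-normalized. The linear unit, annotation and strand setting are not given in the sources used here. Read depth is unknown, so no counting interval could be given and levels were not compared between genes.

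The signals were used as deposited. Genes with at least 2 values per group (19306) were compared by limma 3.58.1 in R 4.3.3 with moderated variances (no trend). Two-sided tests were used, with Benjamini-Hochberg adjustment over all of these genes. The fit was checked on simulated data. Named genes were PTBP1, HNRNPM, HNRNPH1, the 8 members listed by name other than PTBP1, the 8 members with the lowest adjusted p in each direction (7 with an increase exist) and, of the other splicing genes, the 3 called genes with the largest change per direction. The members and gene lists were chosen with earlier results of these data known. Pairs of genes were compared by exact permutation tests. Chromosomes, promoters and start sites came from RefSeq tables of GRCh38.p14, and transcript types from GENCODE release 29. PRPF4B has another symbol in RefSeq and was given no chromosome. Protein sequences were not analysed here. Alternatives changed the genes tested, scaling, a pseudocount of 1, moderation, library weights, a replicate block, single libraries, chromosome centring and the threshold.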

Additional observations from a re-analysis of the deposited data

How the results depend on the processing

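The median log2 fold change of the 43 members stayed below 0 under each alternative run, from -0.43 without KO replicate 1 to -0.19 with chromosome-centred signals. The number of members called, 15, was 29 of 40 when testing was limited to the upper 50% of mean signal, 24 with 1 added to the linear signal, 27 with trend and robust estimation, 26 at an unadjusted p under 0.05 and 1 at a 2-fold change, 10 without moderation, and lay between 0 and 29 with a library left out. The 51 calls among other splicing and decay genes became 92, 88, 91, 91, 2 and 28 in the same order, and 4 to 94 with a library left out. The 6354 calls over all 19306 genes became 5702 of 9653 (59.1%), 7773, 7923 (41%), 9241, 1840 and 4432 in the same order, so calls over all genes rose and fell as well. With a library left out they were 1223 to 8669, the 8669 being without KO replicate 1, where 29 members were called. Library weights, whose estimation stopped without convergence, gave 37 members, 129 other splicing and decay genes and 13936 genes. The replicate numbers shared by the groups mark no shared culture in the labels, and deviations of same-numbered libraries correlated at 0.0226, 0.00509 and -0.00736, so they were not treated as pairs. With a replicate block, limma called 0 members (19 at an unadjusted p under 0.05, lowest adjusted p of a called member 0.0512), 4 other splicing and decay genes and 1533 genes. Of all calls, 60.2% were lower in KO, against 49.4% with libraries centred on the median of the genes tested (3066 lower, 3141 higher, members 11 and 2, other splicing and decay genes 24 and 17), 47.1% with chromosome-centred signals (members 9 and 2) and 46.0% and 46.5% without VC replicates 1 and 3. Adding 1 to the linear signal moved the median of all genes from -0.13 to -0.02. Among the genes given by library, signs turned for TRA2B (3.67e-05) and U2AF1 (0.00498) with median-centred libraries, for HNRNPL with library weights (-0.0135), and for HNRNPC (0.0659), SRSF5 (0.0175) and U2AF1 (0.0831) with chromosome-centred signals. Among the other members they turned for HNRNPA3 and HNRNPF with both centrings and for HNRNPA1L2 with chromosome-centred signals. The cause was not tested. Without read counts, low signals such as those of HNRNPCL1 and SRSF12 have no known precision.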
